A study of Mus musculus with 48 samples.

Results

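The Fos, Jun, Egr and Nr4a families supply the immediate early transcription factors of T cells and of most other white blood cells. The 10 genes described here are Fos, Fosb, Jun, Junb, Egr1, Egr2, Egr3, Nr4a1, Nr4a2 and Nr4a3. They were named as families, with no measured value in the rule, although earlier results of these data were known when the families were picked, and they are 10 of the 34932 genes counted in the sorted cells. All 10 passed the filter on low counts in each of the 19 comparisons below.

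Immediate early genes are switched on within minutes of a stimulus by factors that the cell already holds, so that no new protein is needed. Fos and Jun proteins pair into AP-1, which in T cells works together with NFAT. Egr1, Egr2 and Egr3 are zinc finger factors induced through the MAP kinase ERK after T-cell receptor engagement, and Egr2 and Egr3 are known as brakes on T-cell activation. Nr4a1 (Nur77), Nr4a2 (Nurr1) and Nr4a3 (Nor1) are orphan nuclear receptors whose levels follow the strength of receptor signaling and that are known for restraining T cells in tumors. The same genes are also induced by cell stress, including the dissociation of tissue.

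RNA was sequenced from cells sorted from C57BL/6J mice, 6 to 10 weeks old, that carried B16F10 melanoma under the skin of the flank for about 15 days. Yap-cKO mice had loxP-flanked Yap alleles (Yap-loxP/loxP), an LSL-EYFP reporter and Cre under the Cd4 promoter, which is active in developing T cells and so acts in both CD4+ and CD8+ T cells. WT mice were littermate controls, and the sources used here do not give which of these alleles they carried. Sorting gave CD4+ T cells, CD8+ T cells and a remaining fraction, CD45+ CD4- CD8- (CD45 cells below, which lie largely outside the lineage that the Cre marks). These came from the tumor and from the tumor-draining lymph node (TDLN), in 12 groups with 4 libraries each and 48 libraries in all. Every group came from tumor-bearing mice, so no tumor-free control entered. Tumors were mechanically and enzymatically dissociated before sorting, and no tumor library without dissociation was analysed here. The methods of the study give no such step for the nodes. The labels do not say whether a library held 1 mouse or a pool, nor whether libraries with the same number came from 1 mouse, so p-values measure the spread between these libraries only.

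Gene counts per library ranged from 12656302 to 24213689, and 3 counts corresponded to 0.124 to 0.237 CPM (counts scaled to the gene total of the library), a floor that covers counting error only, since reads were not tagged by molecule. Cd4 and Cd8a fitted the sorts, with group means of 333 to 1035 CPM for Cd4 in CD4 sorts against at most 3.67 in CD8 sorts, and of 408 to 984 CPM for Cd8a in CD8 sorts against at most 4.55 in CD4 sorts. Yap1, the deleted gene, averaged 1.68 to 2.32 CPM in the TDLN groups of both genotypes, too low to check the deletion. In TILs WT and Yap-cKO levels were 20.6 ± 5.26 and 3.11 ± 1.72 CPM for CD4+ cells (SD, n = 4 here and below) and 20.4 ± 6.59 and 4.26 ± 1.64 for CD8+ cells. Melanoma markers moved with it: their sum over 9 genes was 5807 to 18050.0 CPM in WT and 176 to 2401 in Yap-cKO CD4+ TILs, and 3972 to 14230.0 and 45.9 to 2603 in CD8+ TILs. Summed T-cell markers (15 genes) went the other way, with means of 4323 and 7862 CPM in CD4+ and 3467 and 6384 in CD8+ TILs. Each of these sums differed between genotypes by a two-sided exact permutation test (p = 0.0286, the smallest that 4 against 4 allows). In bulk libraries, fewer cells of a type and less RNA per cell cannot be told apart.

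The 250 bases upstream of the start site are shown for Fos, Egr2 and the Nr4a genes. These promoters held 2 or more copies of the motif TGACG, unlike those of Fosb, Junb and Jun. The sequences are from the RefSeq promoter table (GRCm38.p6), which matched 8 of the 10 members (not Egr1 and Egr3), and each reads 5' to 3' on the gene's own strand. Capitals mark TGACG, the core of the site bound by CREB and ATF factors, read as CGTCA where it lay on the other strand. They also mark TATAAA, read as TTTATA on the other strand, and in Egr2 the CArG box bound by SRF. The stretches are Fos, chr12:85473640-85473889 (+), the third of the 5 Egr2 windows, chr10:67537619-67537868 (+), Nr4a1, chr15:101266596-101266845 (+), Nr4a2, chr2:57124004-57124253 (-), and Nr4a3, chr4:48045055-48045152 (+), which stops after 98 bases where an annotated exon begins.
Fos: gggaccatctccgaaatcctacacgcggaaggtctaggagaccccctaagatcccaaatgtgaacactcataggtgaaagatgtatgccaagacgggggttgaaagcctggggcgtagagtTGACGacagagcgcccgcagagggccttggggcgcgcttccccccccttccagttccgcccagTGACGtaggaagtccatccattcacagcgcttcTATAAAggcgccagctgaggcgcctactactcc
Egr2: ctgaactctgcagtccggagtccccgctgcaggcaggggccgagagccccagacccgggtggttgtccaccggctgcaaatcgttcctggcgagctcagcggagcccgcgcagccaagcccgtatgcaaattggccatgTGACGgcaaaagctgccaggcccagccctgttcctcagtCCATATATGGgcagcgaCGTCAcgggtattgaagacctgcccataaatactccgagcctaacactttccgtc
Nr4a1: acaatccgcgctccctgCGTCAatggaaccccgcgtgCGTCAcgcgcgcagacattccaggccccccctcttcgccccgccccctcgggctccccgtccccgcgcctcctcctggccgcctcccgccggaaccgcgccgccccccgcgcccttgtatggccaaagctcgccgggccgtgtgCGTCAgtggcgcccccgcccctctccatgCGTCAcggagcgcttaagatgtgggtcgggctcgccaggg
Nr4a2: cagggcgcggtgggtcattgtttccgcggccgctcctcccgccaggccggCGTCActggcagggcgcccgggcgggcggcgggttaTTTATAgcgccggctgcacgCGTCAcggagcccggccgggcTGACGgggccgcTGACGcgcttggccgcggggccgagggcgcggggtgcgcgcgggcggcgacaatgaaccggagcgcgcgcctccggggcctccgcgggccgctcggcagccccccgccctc
Nr4a3: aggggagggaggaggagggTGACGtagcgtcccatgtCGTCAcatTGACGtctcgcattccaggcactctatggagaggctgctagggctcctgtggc

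TGACG was counted on both strands in windows of 300 bases (250 upstream and 50 downstream). Nr4a1, Nr4a2 and Nr4a3 each held 4 copies, of which 3 lie in the printed stretch of Nr4a3. Of all 32544 promoter windows, 0.234% held 4 or more copies, 5.04% held 2 or more and 20.9% held any. Fos held 2 copies, at -129 and -66 (the first base of the match, with the start site at 0), and TATAAA at -33. Egr2 held 2, at -111 and -55, with the CArG box between them at -72, whereas Fosb and Junb held 1 each and Jun held 0. The CArG box was present in 1.64% of all windows and TATAAA in 13.6%. The full CREB site TGACGTCA (1.8% of all windows, overlapping TGACG), the AP-1 site TGANTCA (7.79%), the Egr site GCGTGGGCG (0.618%) and the Nr4a site AAAGGTCA (1.52%) were found in no window of the 8 members. A match describes letters only and is no evidence of binding.

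Levels between genes were compared per transcript length, in TPM, transcripts scaled to the same total in each library. Junb, the AP-1 member that curbs Jun activity, had group means of 407 to 2188 TPM, and Nr4a1 of 117 to 2583, the 2 highest maxima of the family. Egr3 had the lowest levels, 0.772 to 35.4 TPM. Fos ranged from 177 to 1086 and Jun from 65.6 to 295 TPM, followed by Egr1 (39.7 to 272), Nr4a2 (15.5 to 186), Nr4a3 (12.5 to 136), Egr2 (6.10 to 125) and Fosb (4.99 to 60.1). All levels given below are CPM.

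**Figure D1:**
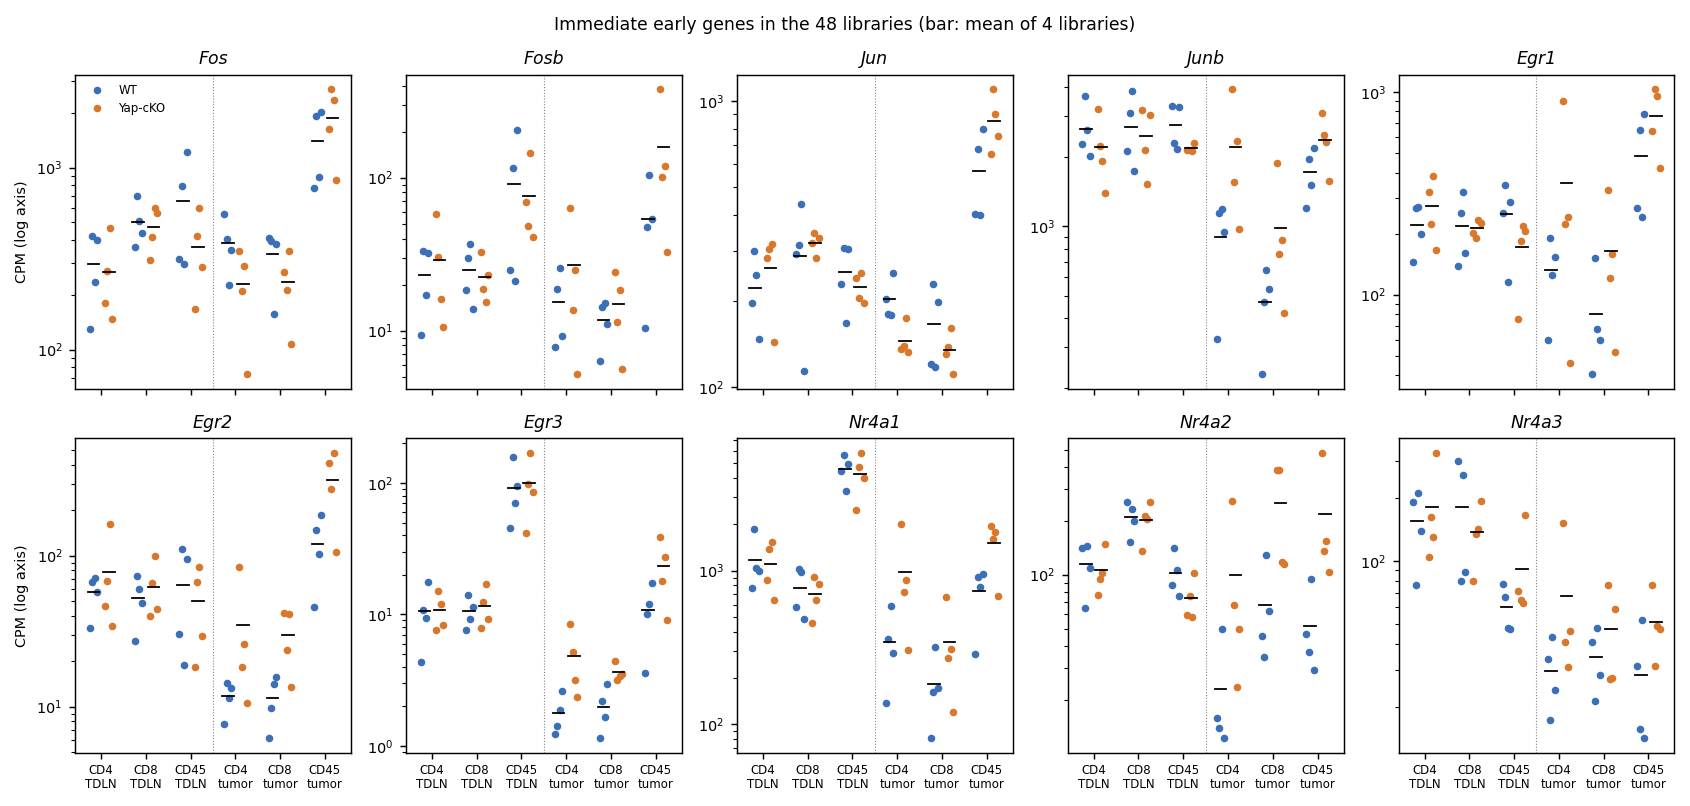
Level of each of the 10 immediate early genes (CPM, log axis) in the 48 libraries, 1 panel a gene, with the 12 groups along the horizontal axis; each point is 1 library and the short line is the mean of the 4 libraries of a group. By group mean, Fos and Jun are highest in CD45 cells of the tumor, Nr4a1 and Egr3 in CD45 cells of the TDLN, and Nr4a2 in Yap-cKO CD8+ TILs, whose libraries overlap those of the next groups.

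The members did not share 1 order of the 12 groups. Fos was highest in CD45 cells of the tumor, at 1885 ± 821 CPM in Yap-cKO and 1398 ± 660.3 in WT, and lowest in Yap-cKO CD4+ TILs at 230.0 ± 119. Jun followed the same order at its top, at 851 ± 195 and 570.2 ± 203 CPM, and its lowest mean was 135 ± 21.01 in Yap-cKO CD8+ TILs. In Jun the 4 WT CD45 tumor libraries (398 to 800 CPM) lay above all libraries of the next group, Yap-cKO CD8+ cells of the TDLN (282 to 345). For Fos, Fosb and Junb no neighbouring groups in the order were separated in this way. Fosb ran from 11.7 ± 4.01 CPM in WT CD8+ TILs to 158 ± 153 in Yap-cKO CD45 tumor cells, and Junb from 470.2 ± 178 in WT CD8+ TILs to 2752 ± 615 in WT CD45 cells of the TDLN.

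Among the Egr genes, Egr1 and Egr2 were highest in Yap-cKO CD45 tumor cells, at 762 ± 285 and 319 ± 166 CPM, and lowest in WT CD8+ TILs, at 79.8 ± 49.0 and 11.5 ± 4.33. Egr3 had another order: it reached 99.2 ± 53.3 and 91.8 ± 47.8 CPM in Yap-cKO and WT CD45 cells of the TDLN and was lowest in WT CD4+ TILs (1.79 ± 0.62). The Nr4a genes each had an order of their own. Nr4a1 was highest in CD45 cells of the TDLN, at 4579 ± 976 CPM in WT and 4258 ± 1405 in Yap-cKO, where its lowest library (2474) lay above the highest of the next group (1957, Yap-cKO CD45 tumor cells). Nr4a2 was highest by mean in Yap-cKO CD8+ TILs (251 ± 155 CPM) and lowest in WT CD4+ TILs (22.9 ± 18.0). Its next groups overlapped the highest: Yap-cKO CD45 tumor cells (219 ± 176) and the WT (210.5 ± 44.8) and Yap-cKO (202 ± 49.2) CD8+ cells of the TDLN. Nr4a3 was highest in WT CD8+ cells of the TDLN (181 ± 114 CPM) and lowest in WT CD45 tumor cells (28.4 ± 17.6), with no neighbouring groups apart. CD45 cells were macrophage-rich in the tumor and B-cell-rich in the TDLN: macrophage markers summed to 27900 and B-cell markers to 1316 CPM in WT tumor, against 1454 and 8446 in WT TDLN.

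Sorted populations were compared in WT mice, with changes called at a Benjamini-Hochberg adjusted p under 0.05 in edgeR's quasi-likelihood test and an absolute log2 fold change above 1. In the tumor, CD45 cells had higher levels of 8 of 10 members than the mean of CD4+ and CD8+ TILs, by log2 1.47 (Junb) to 3.44 (Egr2), where 34.3% of all tested genes were called and 15.7% were called higher. Egr2 was 45.5, 147, 102 and 185 CPM in CD45 tumor libraries and at most 15.7 in any WT TIL library, so the groups did not overlap, as in 30.5% of all genes (log2 3.44 ± 0.32 (SE), edgeR adjusted p = 1.8e-06). Nr4a2 and Nr4a3 were the exceptions, at 0.45 (edgeR adjusted p = 0.46) and -0.12 (0.83). Melanoma markers moved with this comparison too, with mean sums of 11340.0 and 10330.0 CPM in WT CD4+ and CD8+ TILs against 1570.0 in WT CD45 tumor cells, and their part in it was not tested. In the TDLN, where 25.2% of genes were called, 14.0% higher and 11.2% lower, CD45 cells had higher Egr3 (3.13), Nr4a1 (2.29) and Fosb (1.97) and lower Nr4a3 (-1.47). Fosb was no longer called without WT CD45 TDLN replicate 4 (1.21, edgeR adjusted p = 0.11), nor Nr4a3 without replicate 3 (-1.34, 0.0523).

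CD4+ and CD8+ cells of WT mice were not told apart by any member in the edgeR fit, in the tumor (0.448% of all genes called) or in the TDLN (3.54%). At an unadjusted p under 0.05, 2 members passed in the tumor, Junb (0.95) and Nr4a2 (-1.57), and 1 in the TDLN, Nr4a2 (-0.88), as did 5.18% and 12.1% of all genes. DESeq2 called 0 members in both tissues and 1.23% and 5.26% of all genes. In the TDLN Nr4a2 was 142, 64.9, 144 and 109 CPM in CD4+ and 256, 153, 233 and 199 in CD8+ cells, so that every CD8+ library lay above every CD4+ library, as in 8.5% of all genes in either direction. In the tumor, library numbers paired the sorted populations, and with the replicate number as a block Nr4a2 was called lower in CD4+ than in CD8+ TILs (-1.66, edgeR adjusted p = 0.00481). Same-numbered CD4+ and CD8+ libraries of the WT TDLN also correlated in their deviations from group means (mean r 0.568, against 0.394 in the tumor). Neither followed CD45 cells there (-0.014 and -0.017). With the block Nr4a2 was not called in the TDLN (-0.89, edgeR adjusted p = 0.15). The share of all genes called with the block is not given here.

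On the TMM scale used throughout, members were lower in WT TILs than in the T cells of the draining node, but none of the lower calls was made on the T-cell marker scale described further on. In CD4+ cells 6 of 10 were called lower and 0 higher, against 37.3% of all genes called and 14.4% called lower, and the member median was -1.64 beside -0.03 over all genes. The 6 were Junb (-1.54), Egr2 (-2.28), Egr3 (-2.54), Nr4a1 (-1.74), Nr4a2 (-2.33) and Nr4a3 (-2.38), and in each the 4 TIL libraries lay below all 4 TDLN libraries, as either group did in 45.2% of all genes. Egr3, for example, was 4.36, 10.9, 9.32 and 17.7 CPM in the TDLN and 1.22, 1.42, 1.89 and 2.62 in TILs (SE 0.47, edgeR adjusted p = 0.000883). Nr4a3 was 192, 76.8, 210.4 and 139 CPM in the TDLN and 33.9, 17.3, 43.4 and 24.2 in TILs (SE 0.36, edgeR adjusted p = 0.000235). Fos (0.38), Jun (-0.11), Fosb (-0.58) and Egr1 (-0.72) did not pass. Melanoma markers summed to at most 21.3 CPM in any TDLN library group on average, against 11340.0 and 10330.0 in WT CD4+ and CD8+ TILs, and their part in these differences was not tested.

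In WT CD8+ cells 8 of 10 members were called lower in the tumor, against 37.7% of all genes called and 15.2% called lower, with a member median of -1.82 beside -0.02 over all genes. Junb showed the largest difference: it was 2125, 3090.0, 3846 and 1729 CPM in the TDLN and 228, 468, 649 and 537 in TILs (-2.51 ± 0.42, edgeR adjusted p = 0.000595). The Egr2 and Egr3 differences were -2.16 and -2.38, and those of Nr4a1, Nr4a2 and Nr4a3 were -2.04, -1.60 and -2.36. These 6 genes did not overlap between tissues, as was so for 41.4% of all genes. Egr1 (-1.44) and Fosb (-1.06) overlapped, and their calls were lost in 3 and 7 of the 8 fits that left out 1 library. Fos (-0.55) and Jun (-0.78) did not pass, although Jun was called without WT CD8 TDLN replicate 4 (-1.06, edgeR adjusted p = 0.0144).

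**Figure D2:**
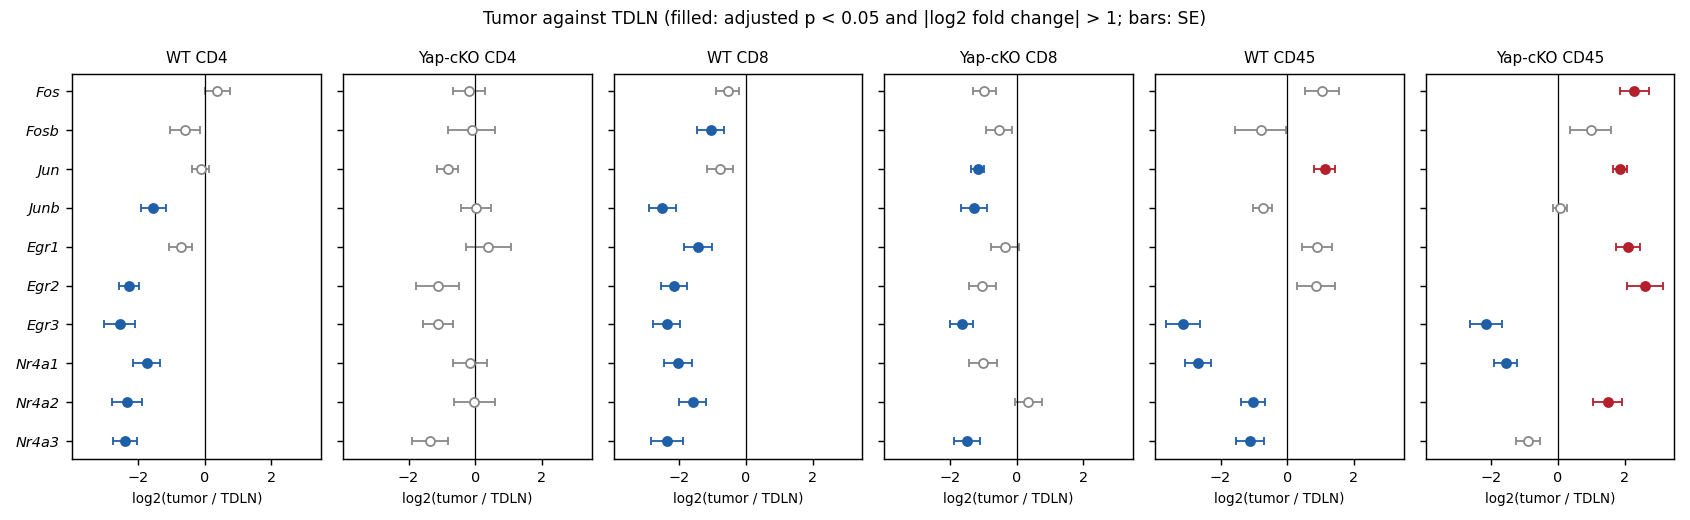
Log2 fold change of each member between tumor and TDLN (positive values are higher in the tumor) in the 3 sorted populations, WT and Yap-cKO, with bars of 1 SE from the edgeR fit; filled points are called. In WT T cells 6 (CD4+) and 8 (CD8+) members are called lower, in Yap-cKO T cells 0 and 4, and in CD45 cells some members lie on each side of 0; values are on the TMM scale, and on the T-cell marker scale the lower calls in T cells are not made.

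In Yap-cKO CD4+ cells 0 members were called between tumor and TDLN by edgeR, where 18.5% of all genes were (at an unadjusted p under 0.05, 3 members and 33.0% of all genes passed). DESeq2 called 1, Nr4a3 (-1.36), and 22.8% of all genes. The edgeR count moved with single libraries: without Yap-cKO CD4 tumor replicate 1, Egr2 (-2.04), Egr3 (-1.53) and Nr4a3 (-2.11) were called lower, and without TDLN replicate 4 Jun was (-1.04). In Yap-cKO CD8+ cells Jun (-1.17), Junb (-1.28), Egr3 (-1.65) and Nr4a3 (-1.48) were called lower, against 15.9% of all genes called and 5.0% called lower. Jun was 318, 345, 282 and 331 CPM in the TDLN and 130.2, 139, 162 and 111 in TILs, without overlap, as in 24% of all genes. Nr4a2 did not go this way, at 0.35 (edgeR adjusted p = 0.59). The number of members called ranged from 2 (without TDLN replicate 4, tumor replicate 2 or tumor replicate 3) to 5 (without tumor replicate 1, adding Nr4a1 at -1.50).

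CD45 cells showed another pattern. In WT, Jun was higher in the tumor (1.13 ± 0.31, edgeR adjusted p = 0.0119), and Egr3 (-3.12), Nr4a1 (-2.68), Nr4a2 (-1.02) and Nr4a3 (-1.11) were lower, with 39.9% of all genes called, 21.9% higher and 18.0% lower. Nr4a1 was 4432, 5622, 3310.0 and 4954 CPM in the TDLN and 288, 911, 781 and 956 in the tumor, a wide gap, and 48.1% of all genes had no overlap. The call of Jun was lost without WT CD45 TDLN replicate 3 (0.95) or tumor replicate 4 (0.93), and 2 to 6 members were called as single libraries were left out, 2 without tumor replicate 4, 3 without tumor replicate 1 or 2 or TDLN replicate 2 or 3, and 6, with Fos at 1.53, without TDLN replicate 4. In Yap-cKO, Fos (2.29), Jun (1.87), Egr1 (2.10), Egr2 (2.62) and Nr4a2 (1.49) were higher in the tumor, and Egr3 (-2.16) and Nr4a1 (-1.56) were lower, against 40.3% of all genes called, 21.8% higher and 18.5% lower. Jun was 241, 206, 251 and 197 CPM in the TDLN and 652, 1101, 899 and 753 in the tumor, without overlap, as in 52.1% of all genes. Nr4a2 lost its call without Yap-cKO CD45 tumor replicate 1 (0.85), which moved it below the fold limit. Nr4a3 was at -0.90 and short of that limit. The makeup of these sorts differed between tissues as given above, and its part in these differences was not tested.

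The calls in T cells depended on the scaling. When libraries were scaled to the 15 T-cell marker genes in place of edgeR's TMM factors, the median log2 difference of all tested genes between tumor and TDLN moved to 1.62 in WT CD4+ cells, 1.73 in WT CD8+ cells, 0.23 in Yap-cKO CD4+ cells and 0.47 in Yap-cKO CD8+ cells. On that scale none of the 14 lower calls in WT T cells was made, Fos was called higher in both (2.26 and 1.41) and Jun in CD4+ cells (1.62), while Junb, Egr2, Egr3 and the 3 Nr4a genes kept a negative sign in both (-0.12 to -1.16) and Fosb, Egr1 and, in CD8+ cells, Jun had a positive one without a call. Higher and lower calls were thus 2 and 0 in place of 0 and 6 in WT CD4+ cells, 1 and 0 in place of 0 and 8 in WT CD8+ cells, and 0 in place of 4 lower in Yap-cKO CD8+ cells. Of all genes, 57.5% were called higher and 0.757% lower on that scale in WT CD4+ cells (22.9% and 14.4% on the TMM scale), 63.3% and 0.669% in WT CD8+ cells (22.5% and 15.2%) and 17.4% and 1.36% in Yap-cKO CD8+ cells (10.9% and 5.0%). Relative to the median of all genes on that scale, Egr3 lay at -2.78 in WT CD4+ and Junb at -2.56 in WT CD8+ cells, and Fos at 0.64 and -0.31.

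**Figure D3:**
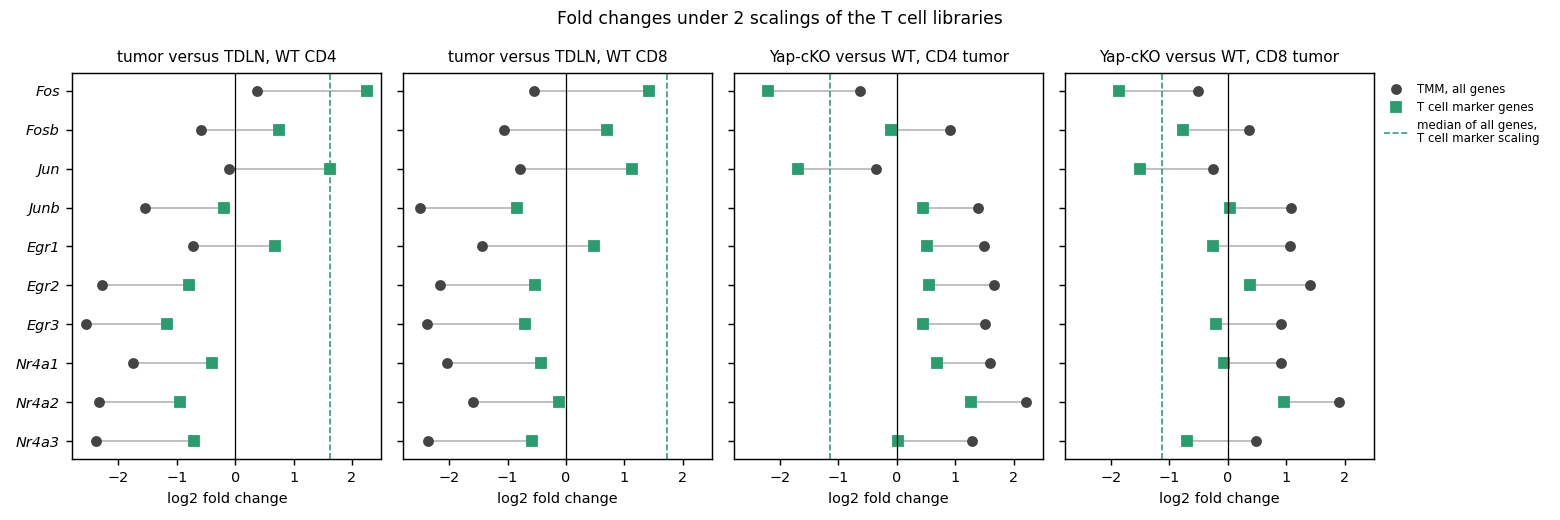
Log2 fold change (horizontal axis) of each member in 4 T-cell comparisons, as circles on the TMM scale and squares with libraries scaled to 15 T-cell marker genes, joined by a line; the dashed line is the median of all genes on the T-cell marker scale. All squares lie to the right of their circles in the WT tissue comparisons, where the dashed line is at 1.62 and 1.73, and to the left in the TIL genotype comparisons, where it is at -1.15 and -1.12.

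Between genotypes, edgeR called members only in CD8+ TILs (DESeq2 also called some in CD4+ TILs and CD45 tumor cells, given below), where Nr4a2 and Egr2 were higher in Yap-cKO on the TMM scale (neither was called on the T-cell marker scale). Nr4a2 was 45.2, 34.7, 129 and 63.0 CPM in WT and 384, 386, 118 and 115 in Yap-cKO CD8+ TILs. WT replicate 3 lay above Yap-cKO replicates 3 and 4, so the groups overlapped (log2 1.90 ± 0.53, edgeR adjusted p = 0.0437). Egr2 was 6.17, 9.81, 14.2 and 15.7 CPM in WT and 41.5, 23.8, 41.3 and 13.6 in Yap-cKO, with only Yap-cKO replicate 4 among the WT libraries (1.40 ± 0.40, edgeR adjusted p = 0.0438). Of all tested genes 12.2% were called in this comparison and 3.03% were called higher, and the member median was 0.91 beside 0.08 over all genes. Egr3 did not overlap, at 1.14, 2.17, 1.65 and 2.94 CPM in WT and 4.45, 3.14, 3.38 and 3.52 in Yap-cKO, as in 21.3% of all genes, and was not called (0.91, edgeR adjusted p = 0.14). Junb was at 1.08 (0.12), Egr1 at 1.07 (0.17) and Nr4a1 at 0.91 (0.22), and Fos (-0.50) and Jun (-0.26) had the opposite sign.

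Both calls were marginal. Of the 8 fits without 1 library, Nr4a2 was called without WT replicate 3 or Yap-cKO replicate 3 and Egr2 without WT replicate 3 or Yap-cKO replicate 4, and without Yap-cKO replicate 1 they were 1.64 (edgeR adjusted p = 0.10) and 1.22 (0.10). The melanoma, endothelial and fibroblast marker sums were lower in Yap-cKO in this comparison, at means of 1083, 73.4 and 8.59 CPM against 10330.0, 551 and 256, and the macrophage sum was higher, at 1348 against 462 (all at exact permutation p = 0.0286). With the log level of the first 3 marker sets as a covariate Nr4a2 was -0.96, Nr4a1 -0.96, Nr4a3 -0.94 and Junb -0.59, and Egr2 was 0.58. None of these was called (edgeR adjusted p = 0.9999 for each). Genotype explained 0.817 of that covariate's variance, so genotype and marker level cannot be told apart. The macrophage sum was not in the covariate, and its part in these differences was not tested. Y chromosome genes summed to 3.86 to 113 CPM in the WT and 3.88 to 8.49 in the Yap-cKO libraries, and with their level as a covariate Nr4a2 was 2.13 (edgeR adjusted p = 0.18) and Egr2 0.98 (0.33). On the T-cell marker scale, where all genes centred on -1.12, Nr4a2 was 0.97 and Egr2 0.38 and neither was called, whereas Fos (-1.87) and Jun (-1.50) were called lower, beside 40.5% of all genes (0.0425% were called higher). On that scale Egr1 (-0.25), Egr3 (-0.20), Nr4a1 (-0.07), Nr4a3 (-0.70) and Fosb (-0.76) had a negative sign. Relative to that centre Nr4a2 was at 2.09 and Egr2 at 1.51.

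In CD4+ TILs 0 members were called by edgeR, where 8.02% of all genes were, although 6 passed an unadjusted p under 0.05, as did 24.5% of all genes. DESeq2 called 15% of all genes and 5 members, namely Junb (1.38), Egr2 (1.64), Egr3 (1.50), Nr4a1 (1.58) and Nr4a2 (2.20). The member median was 1.44 beside 0.14 over all genes. Nr4a2 was 15.7, 13.9, 49.9 and 12.2 CPM in WT and 258, 67.7, 23.6 and 49.5 in Yap-cKO CD4+ TILs (2.21 ± 0.71, edgeR adjusted p = 0.0859). Egr1 was 59.6, 191, 126 and 154 CPM in WT and 904, 224, 241 and 45.9 in Yap-cKO, with a Yap-cKO library at each end (1.49 ± 0.70, edgeR adjusted p = 0.22). No member was free of overlap, against 16.9% of all genes. The size of these differences depended on Yap-cKO CD4 tumor replicate 1: without it Nr4a2 was 1.18, Egr2 0.79, Egr1 0.50 and Fosb 0.08. Without Yap-cKO replicate 3, in contrast, Egr3 (1.61), Nr4a2 (2.51) and Nr4a3 (1.48) were called higher. With the level of Y chromosome genes as a covariate members ran from -0.82 (Fos) to 2.85 (Nr4a2), and none was called. Genotype explained 0.592 of the variance of that level, so sex and genotype cannot be told apart. The melanoma, endothelial and fibroblast marker sums were lower in Yap-cKO here too, at means of 1080.0, 110.5 and 23.9 CPM against 11340.0, 284 and 320 (exact permutation p = 0.0286 each). With their log level as a covariate Nr4a2 was -1.50 and Nr4a3 -0.67, and Egr3 was 0.07, Egr1 0.15, Egr2 0.58, Nr4a1 0.97 and Junb 1.16. None of these was called. Genotype explained 0.835 of the variance of that covariate, so genotype and marker level cannot be told apart. Fos (-0.63) and Jun (-0.37) had a negative sign, and on the T-cell marker scale, where all genes centred on -1.15, both were called lower (-2.21 and -1.70), beside 25% of all genes, and Nr4a2 was 1.26.

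**Figure D4:**
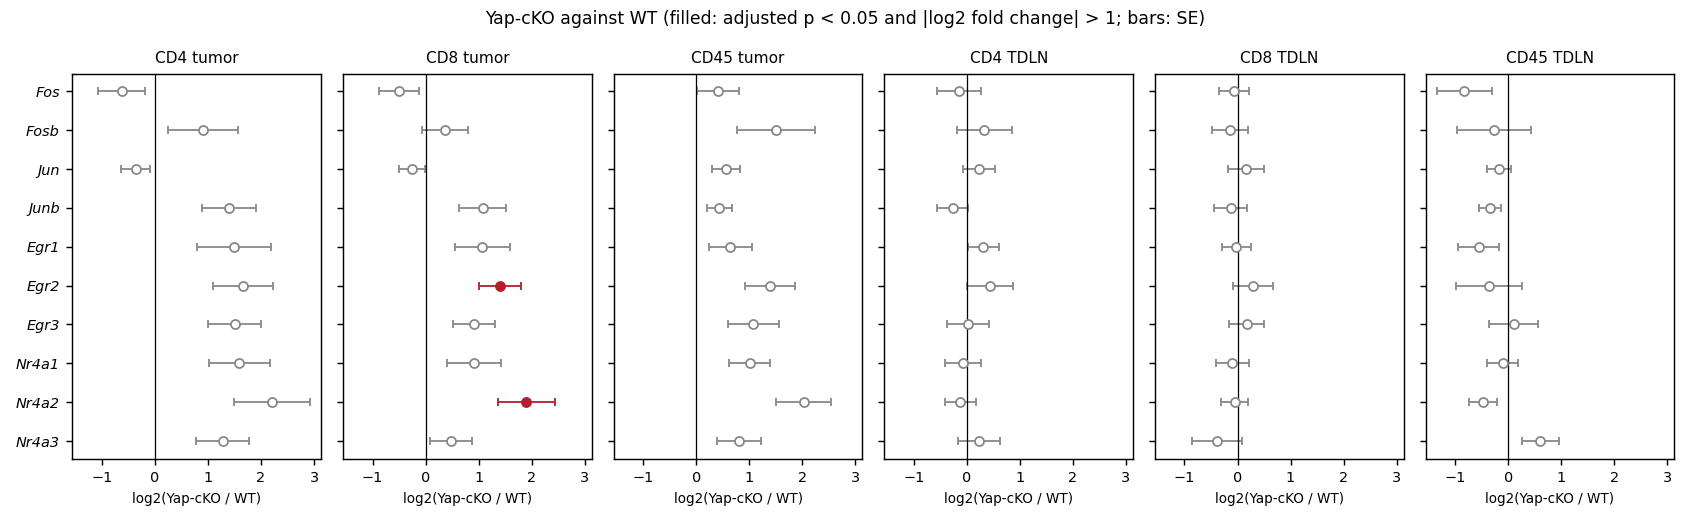
Log2 fold change of each member between Yap-cKO and WT (positive values are higher in Yap-cKO) in the 3 sorted populations of tumor and TDLN, with bars of 1 SE from the edgeR fit; filled points are called. Nr4a2 (1.90) and Egr2 (1.40) in CD8+ TILs are the filled points, Fos and Jun lie below 0 in both T-cell populations of the tumor, and no TDLN point is filled; values are on the TMM scale, and neither filled point is called on the T-cell marker scale.

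In CD45 tumor cells all 10 members had a positive difference (median 0.91 beside 0.01 over all genes), and edgeR called 0 of them where it called 0.991% of all genes. At an unadjusted p under 0.05, 4 members and 17.8% of all genes passed, and DESeq2 called 3.87% of all genes and 2 members, Egr2 (1.39) and Nr4a2 (2.04). Nr4a2 was 46.3, 37.2, 94.1 and 29.2 CPM in WT and 481, 136, 154 and 104 in Yap-cKO, without overlap, as in 11.5% of all genes (2.03 ± 0.52, edgeR adjusted p = 0.0872). It was 1.32 (0.14) without Yap-cKO CD45 tumor replicate 1. With the level of Y chromosome genes as a covariate Fos was 0.07, Egr1 0.16, Junb 0.17 and Jun 0.20. The other members kept larger positive values, up to 2.74 (Nr4a2), and none was called. Genotype explained 0.516 of that covariate's variance, so sex and genotype cannot be told apart. The melanoma marker sum (means of 1570.0 and 345 CPM in WT and Yap-cKO) and the B-cell sum (1316 and 523) also differed here (exact permutation p = 0.0286), and their part was not tested.

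The 3 TDLN comparisons gave 0 members by edgeR and by DESeq2, and 0 at an unadjusted p under 0.05, where 0.0462%, 0.0158% and 0.0596% of all genes were called by edgeR in CD4+, CD8+ and CD45 cells, 0.162%, 0.119% and 0.12% by DESeq2, and 1.75%, 0.949% and 2.91% passed unadjusted. Differences ranged from -0.27 (Junb) to 0.44 (Egr2) in CD4+ cells, from -0.39 (Nr4a3) to 0.29 (Egr2) in CD8+ cells and from -0.83 (Fos) to 0.61 (Nr4a3) in CD45 cells. Nr4a2, which led in the tumor, was at -0.13 ± 0.29, -0.05 ± 0.26 and -0.47 ± 0.26 there. The difference between tissues in the genotype effect was tested as an interaction. It was called by edgeR for 0 members in each population, where 1.36%, 0.422% and 0.0% of genes were called. At an unadjusted p under 0.05, 4, 1 and 2 members passed beside 14.8%, 15.6% and 8.38% of all genes, and DESeq2 called 0, 0 and 1 (Nr4a2 in CD45 cells, 2.52) beside 5.58%, 4.82% and 0.802%. Nr4a2 had an interaction of 2.33 (edgeR adjusted p = 0.18), 1.92 (0.15) and 2.50 (0.23) in CD4+, CD8+ and CD45 cells. It was called without Yap-cKO CD4 tumor replicate 3 (2.70, 0.0338) and without WT CD8 tumor replicate 3 (2.43, 0.036).

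The lists of related genes were read on the same scale, and beside each T-cell count stands the count on the T-cell marker scale, which moved the direction of many. In the TDLN edgeR called no gene of these 5 lists between genotypes. The counts stand against the shares of all genes called higher and lower, which between genotypes were 1.36% and 6.66% for CD4+ TILs, 3.03% and 9.14% for CD8+ ones and 0.066% and 0.925% for CD45 tumor cells. On the T-cell marker scale they were 0.12% and 25% in CD4+ and 0.0425% and 40.5% in CD8+ TILs. From TDLN to tumor they were 12.4% and 6.07% in Yap-cKO CD4+ cells (17.3% and 3.04% on the T-cell marker scale), with the other populations as given above, and in CD45 cells against WT TILs 15.7% and 18.6%. Of 13 other AP-1 and Egr family genes, edgeR called 0 between genotypes in any population (0 higher and 2 lower in CD4+ and 0 and 1 in CD8+ TILs on the T-cell marker scale). In tumor against TDLN, 4 rose and 4 fell in WT CD4+ cells (5 and 0 on the T-cell marker scale): Batf2, at 0 counts in every WT CD4+ TDLN library, and Jdp2 (3.77), a repressor of AP-1, rose, and Nab2 (-1.98), a corepressor of the Egr factors that they themselves induce, and Mafk (-1.90) fell. In WT CD8+ cells 3 rose and 5 fell of 12 tested (4 and 1 on the T-cell marker scale), led by Jdp2 (3.71) and Batf3 (2.61) up and Fosl2 (-2.95), a Fos relative, and Mafk (-2.34) down. In CD45 cells 5 rose and 3 fell in WT, with Batf3 at 3.75 and Mafk at -1.44, and 7 rose and 1 fell in Yap-cKO, with Batf3 at 5.46 and Jund at -1.05. Yap-cKO T cells had 3 higher and 1 lower in CD4+ (4 and 1 on that scale) and 3 higher and 2 lower in CD8+ cells (4 and 0), led by Jdp2 (4.63 and 3.32) and Mafk (-1.47) or Nab2 (-1.21). CD45 cells had 7 higher and 0 lower than WT TILs, with Batf3 at 4.51, and 3 higher and 1 lower than WT T cells of the TDLN, with Atf3 at 3.17 and Fosl2 at -2.16.

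Of the 20 other immediate early and feedback genes, 2 rose and 8 fell from TDLN to tumor in WT CD4+ cells (median -0.90) and 3 rose and 13 fell in WT CD8+ cells (-1.54), but on the T-cell marker scale 8 and 6 were called higher and 0 lower. Dusp1, a MAP kinase phosphatase, fell by 1.79 and 2.34 on the log2 scale and Ppp1r15a, a stress-induced phosphatase subunit, by 1.84 and 2.67. Against this direction Ier3 rose (5.67 and 3.65), as did Dusp6 (1.28 and 1.82), the phosphatase of ERK. In Yap-cKO cells 1 rose and 0 fell in CD4+ cells (Ier3, 3.92; 4 and 0 on the T-cell marker scale) and 2 rose and 3 fell in CD8+ cells, with Ier3 (2.29) and Ppp1r15a (-1.44) at the ends (2 and 0 on that scale). CD45 cells had 5 higher and 8 lower in WT (Ier3, 3.22, and Myc, -2.68) and 8 higher and 5 lower in Yap-cKO (Ier3, 6.70, and Myc, -2.36). Between genotypes, Gadd45b (1.92) and Nfkbia (1.40), the inhibitor of NF-kappaB, were higher in Yap-cKO CD4+ TILs, and Dusp6 was lower in CD4+ (-1.34) and CD8+ (-1.37) TILs. These were 2 higher and 1 lower and 0 and 1, which became 0 and 4 in CD4+ and 0 and 5 in CD8+ TILs on the T-cell marker scale. WT CD45 cells had 10 higher and 1 lower than TILs (Zfp36, 3.10, and Dusp4, -1.93), and 7 higher and 0 lower than T cells in the TDLN (Ier3, 4.28). CD4+ and CD8+ cells of the TDLN differed in Dusp4 (1.86) and Dusp2 (-1.52).

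Of 17 upstream kinases and factors, 1 rose and 5 fell from TDLN to tumor in each WT population (6 and 0 in CD4+ and 7 and 0 in CD8+ cells on the T-cell marker scale), and in each the ERK gene Mapk3 was the one that rose (1.17, 1.12 and 1.44) and Nfatc1, the NFAT partner of AP-1, fell most (-1.74, -1.75 and -2.65). In Yap-cKO cells Elk4 was lower in CD4+ cells (-1.03; on that scale 2 genes were higher and 0 lower), 0 passed in CD8+ cells (1 higher), and in CD45 cells Mapk3 rose (1.69) and 4 fell, led by Nfatc1 (-2.10). Between genotypes Nfatc3 in CD8+ TILs (1.37) was the single call, and the T-cell marker scale gave 0 higher and 7 lower there and 0 and 1 in CD4+ TILs. In CD45 cells against T cells 2 were higher and 0 lower in the tumor (Ppp3ca, 1.28) and 2 higher and 1 lower in the TDLN (Ppp3ca, 1.99, and Nfatc2, -1.23).

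Of the 14 genes linked to Egr2, Egr3 or Nr4a in T cells, the comparison of genotypes in CD4+ TILs called 5 higher in Yap-cKO and 0 lower, where 1.36% of all genes were called higher, led by Havcr2 (2.43) and Lag3 (2.35), both inhibitory receptors, with a median of 1.49 beside 0.14 over all genes, but 0 were called on the T-cell marker scale. In CD8+ TILs 3 were higher and 1 lower, with Cd69 (1.63) and Cblb (1.46), a ubiquitin ligase that restrains receptor signaling, at the top and Ndrg1 (-1.31) down (0 and 1 on that scale). In CD45 tumor cells 0 were called. The CD4+ interaction was called for 3, led by Havcr2 (3.19) and Tigit (2.45), where 0.205% of all genes were called higher and 1.15% lower, and for 0 on the T-cell marker scale, where 0.0398% and 13.5% were. From TDLN to tumor, 3 rose and 5 fell in WT CD4+ cells (Pdcd1, 1.58, and Irf4, -2.22) and 5 rose and 5 fell in WT CD8+ cells (Havcr2, 7.17, Pdcd1, 3.46, Irf4, -2.33, and Dgka, -2.20), against 6 and 0 and 8 and 0 on the T-cell marker scale. Yap-cKO T cells had 5 higher and 1 lower in CD4+ (Havcr2, 4.16, and Dgka, -1.82) and 6 higher and 2 lower in CD8+ cells (Havcr2, 6.29, and Dgka, -1.37), and 5 and 1 and 7 and 0 on that scale. CD45 cells had 4 higher and 5 lower in WT and 7 higher and 4 lower in Yap-cKO, with Irf4 at -2.90 and -2.93. Against T cells, CD45 cells had 3 higher and 7 lower in the tumor and 2 higher and 7 lower in the TDLN, with Ctla4 lowest (-5.14 and -4.48). CD4+ cells had higher Ctla4 than CD8+ cells in both tissues (1.90 and 2.11), and Havcr2 was lower in CD4+ cells in the tumor (-1.96) and higher in the TDLN (4.16).

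Heat shock genes that respond to dissociation were read beside these lists. Between genotypes 0 of 11 were called in CD4+ TILs (median 0.06; 0 higher and 3 lower on the T-cell marker scale), 0 higher and 2 lower in CD8+ TILs (Hspb1, -2.40, and Hspe1, -1.31; 0 and 5 on that scale), and 2 higher in CD45 tumor cells (Hspa1b, 1.15, and Hspa1a, 1.14, near-identical copies that share reads). From TDLN to tumor 1 rose and 5 fell in WT CD4+ cells (Dnajb1, -2.52), and 2 rose and 6 fell in WT CD8+ cells (Dnajb1, -3.37), against 4 and 0 and 4 and 1 on the T-cell marker scale. Yap-cKO T cells had 1 higher and 3 lower in CD4+ (1 and 2 on that scale) and 1 higher and 7 lower in CD8+ cells (1 and 3), again with Dnajb1 lowest (-1.91 and -2.72), and CD45 cells 3 higher and 1 lower in WT and 3 higher and 0 lower in Yap-cKO, with Hspb1 highest (4.59 and 6.71). CD45 cells had 2 higher and 1 lower than TILs, and 0 higher and 5 lower than T cells of the TDLN. Tissue and dissociation cannot be told apart in this design.

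Within groups, the members did not vary as 1 block. Each library's deviation from its group mean (log2 of CPM plus 0.5) was correlated between members over the 48 libraries, as a description, since the 4 libraries of a group share its mean and libraries may share mice. Junb and Nr4a1 deviated together most (r = 0.805), followed by Egr2 and Egr3 (0.789), Egr1 and Nr4a1 (0.787) and Egr2 and Nr4a1 (0.785). Nr4a2 and Nr4a3 formed a pair of their own (0.703, and 0.727 in the 24 tumor and 0.824 in the 24 TDLN libraries), and went against Jun (-0.34 and -0.31 over all 48). Jun and Nr4a3 had -0.69 in the tumor libraries, where Junb and Nr4a1 had 0.94. In the TDLN libraries the r was -0.016 for Jun and Nr4a3 and 0.396 for Junb and Nr4a1, and Fos and Egr2 had the highest (0.886).

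**Figure D5:**
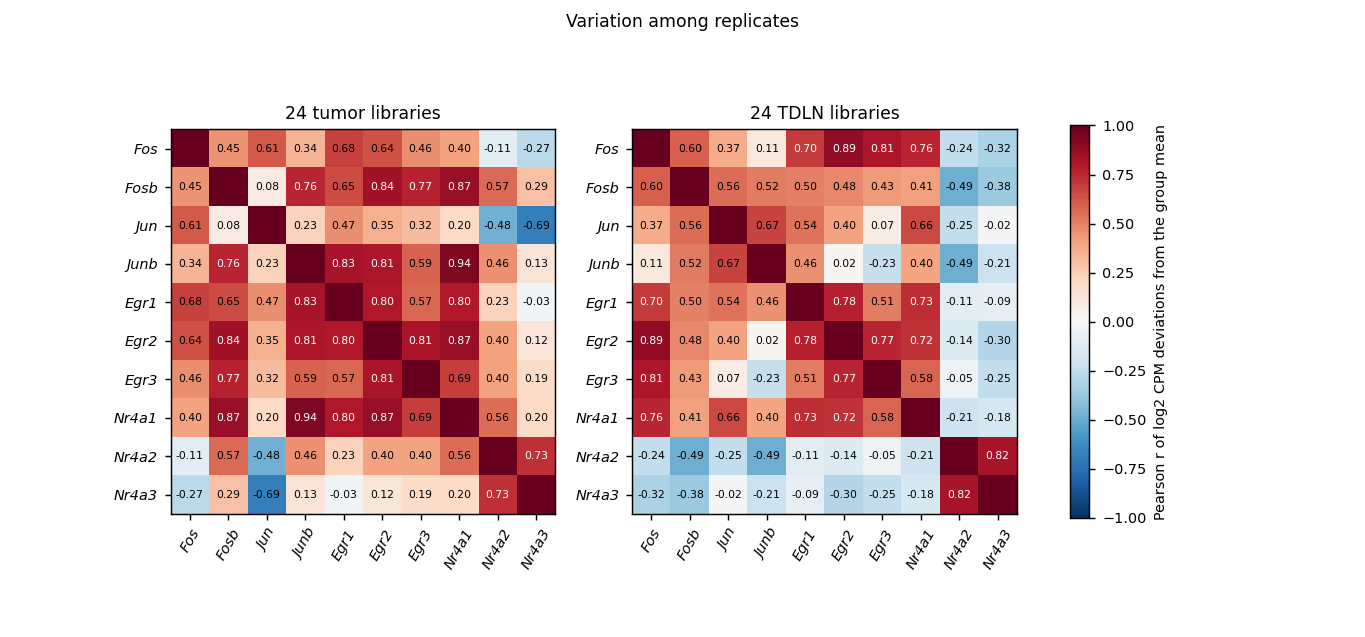
Pearson r between members of the deviations of single libraries from their group mean (log2 of CPM plus 0.5), for the tumor and the TDLN libraries (24 each); the color scale runs from -1 to 1. In the tumor Nr4a2 and Nr4a3 (0.727) have negative r with Fos and Jun, and Junb goes with Nr4a1 (0.94).

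Single libraries stood at the ends for many members at once. The same was not counted over all genes, so it is not shown to be particular to the members. Yap-cKO tumor replicate 1 was the highest of its group for 9 of 10 members in CD4+ cells, 7 in CD8+ cells and 6 in CD45 cells, and replicate 4 the lowest for 8 in each. WT tumor replicate 1 was the lowest for 6 members in each population. This library had the highest melanoma marker sum of its group in all 3 populations (18050.0, 14230.0 and 1838 CPM) and the lowest T-cell marker sum in CD4+ and CD8+ TILs (1635 and 1775 CPM). Yap-cKO tumor replicate 1 also had the lowest melanoma marker sum of its group in all 3 populations, at 176, 45.9 and 133 CPM, and the part of this in the member values was not tested.

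Across the 12 group means, Egr3 and Nr4a1 (r = 0.954), Egr1 and Egr2 (0.941) and Fos and Jun (0.933) were most alike among the members. Among the 16869 genes that reached 10 counts in 4 libraries or more, the 2 genes most like each member over the 12 groups were Tmem189 (0.984) and Calr (0.969) for Fos, Rab5b (0.975) and Rabgef1 (0.972) for Fosb, Wdr86 (0.972) and Gal3st2 (0.957) for Jun, and Nfkbid (0.966) and Keap1 (0.96) for Junb. For the Egr genes they were Arrb1 (0.96) and Slc25a45 (0.959) for Egr1, Mknk1 (0.983) and Ccdc71l (0.971) for Egr2, and Arhgap17 (0.986) and Dennd4b (0.982) for Egr3. For the Nr4a genes they were Irf4 (0.972) and Rel (0.962) for Nr4a1, Mtmr1 (0.908) and Sult2b1 (0.876) for Nr4a2, and Slc35e2 (0.973) and Dnd1 (0.97) for Nr4a3. Nr4a2 had the least close neighbours of the 10.

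The transcripts behind the gene levels differed between members. Egr1-202, 1 of the 2 Egr1 transcripts, took a median of 92.9% of Egr1 TPM. A processed transcript without a coding sequence, Nr4a3-204, took 69.2% of Nr4a3 TPM, and a retained intron, Egr3-202, took 35.0% of Egr3. Fosb was split between Fosb-201 (full-length, 55.3%) and the shorter Fosb-206 (22.4%), whose coding sequence of 711 bases against 1014 fits the truncated form that lacks the C-terminal part. Of these 2 forms, the short one took 30.3% to 44.4% on average in the TDLN groups and 12.1% to 35.8% in the tumor groups. Single tumor libraries ran from 0% to 99.4%, so no difference was read from it, and Salmon splits reads between such overlapping transcripts by estimation.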

How the data were processed

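The 48 libraries were prepared with the SMART-Seq v4 kit from RNA of sorted cells and sequenced as paired reads. Per the labels, the authors used FastQC, Trimmomatic and Salmon 0.9.1 with mm10, and deposited for each library and transcript an expected count, a TPM value and lengths. Of 112092 transcripts, 111787 were assigned to GENCODE M21 genes by unversioned identifier, expected counts were summed per gene (34932 genes) and rounded, and the 0.0488% to 0.18% of counts without a match were left out. TPM was summed per gene and used only to compare levels between genes. CPM scales counts to the library's gene total times its TMM factor over all 48 libraries. Effective lengths served only for average transcript length offsets, an alternative.

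Tests used edgeR 4.0.16 (R 4.3.3; TMM, glmQLFit and glmQLFTest, genes that reached 10 counts in 4 or more libraries of the fit), with p adjusted by the Benjamini-Hochberg method over all tested genes and calls at 0.05 and an absolute log2 fold change above 1. Each genotype and tissue comparison took 8 libraries, each interaction 16, and each comparison of sorted populations the 12 WT libraries of a tissue. Comparisons share libraries: tissue and genotype comparisons of a population use the same 4 groups. Scripts were tested on simulated data. Marker sums were compared by two-sided exact permutation tests (scipy 1.17.1), and figures used matplotlib 3.10.9. Of the 72 pairs of replicates within groups, 0 were identical and 0 differed by less than the sampling noise.

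The members and gene lists were chosen with earlier results of these data known, so no list adds independent support. The members are named in every comparison, in each list genes from the 2 called with the largest change in each direction, and for each member the 2 genes with the most similar group means; markers are given as sums. Whether strand was used in counting is not given in the sources used here, so reads of a gene and of an overlapping antisense gene may be mixed.

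Whether the replicate numbers in the labels pair libraries was checked by the correlation of deviations from group means. Every pair of same-numbered libraries correlated above 0.1 between all 3 sorted populations of WT tumors, and in 5 of 12 comparisons between sorted populations in all. It was so in 0 of 6 comparisons of genotypes and 0 of 6 of tissues (mean r from -0.25 to 0.033 and from -0.12 to 0.24). Libraries of different genotypes come from different mice. Between tissues a low r does not settle whether same-numbered libraries came from 1 mouse. Y chromosome genes (Ddx3y and Eif2s3y each above 5 CPM) marked 18 libraries, all of them WT replicates 1 to 3 and in both tissues, so sex and genotype overlap. Alternatives were DESeq2 1.42.0, no count filter, average transcript length offsets, scaling on 15 T-cell markers, a replicate block, a covariate of Y chromosome genes or of 25 melanoma, endothelial and fibroblast markers, and each library left out.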

Additional observations from a re-analysis of the deposited data

Results flagged for a closer look

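In 6 of the 120 combinations of a member and a group, 1 library lay far from the other 3 relative to the range of the 4; chance gives about 1 in 20, or 6 of 120. Fos was lowest in WT CD8 tumor replicate 3 (156.9 CPM, with the nearest library at 382.1). Jun was highest in Yap-cKO CD4 tumor replicate 3 (174.3 CPM, nearest 139.0). Nr4a2 was highest in WT CD4 tumor replicate 3 (49.89 CPM, nearest 15.74) and in Yap-cKO CD45 tumor replicate 1 (480.9 CPM, nearest 153.5). Nr4a3 was highest in Yap-cKO CD45 TDLN replicate 4 (166.1 CPM, nearest 71.71) and in Yap-cKO CD4 tumor replicate 1 (151.9 CPM, nearest 46.16).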

How the results depend on the processing

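Numbers of members called are given first, beside the value reported. The share of all genes called is not given here for no filter, length offsets, the block, the covariates and left-out libraries. Nor is it given for the CD8+ interaction on the T-cell marker scale. Counts under these settings are therefore not read as results about the members. In Yap-cKO against WT, CD4+ TILs had 0 members called, and 5 with DESeq2, 1 without the count filter, 1 with average transcript length offsets, 2 on the T-cell marker scale and 0 to 3 with single libraries left out. CD8+ TILs had 2, and 0 with the replicate block, 0 with the Y chromosome gene covariate, 0 with the covariate of melanoma, endothelial and fibroblast markers, and 0 to 2 with single libraries left out. CD45 tumor cells had 0, and 2 with DESeq2 and 1 without the filter. In tumor against TDLN on the T-cell marker scale, WT CD4+ cells had 2 in place of 6, WT CD8+ cells 1 in place of 8 and Yap-cKO CD8+ cells 0 in place of 4. With single libraries left out, WT CD45 cells had 2 to 6 in place of 5, Yap-cKO CD4+ cells 0 to 3 in place of 0 (1 with DESeq2), and Yap-cKO CD8+ cells 2 to 5 in place of 4. The interaction, 0 in each population, had 1 on the T-cell marker scale (Jun, -2.15 in CD4+ and -1.82 in CD8+ cells), 0 to 1 with single libraries left out in CD4+ and in CD8+ cells, and 1 with DESeq2 in CD45 cells.

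Among values called under either setting, signs turned for Nr4a2 between genotypes in CD8+ TILs with the marker covariate (-0.96), and between tumor and TDLN on the T-cell marker scale for Jun in WT CD4+ cells (1.62) and for Fos (1.41), Fosb (0.70) and Egr1 (0.48) in WT CD8+ cells; the cause was not tested beyond the construction of these scales. Counting values that were never called as well, signs turned for 3 of 10 members in CD4+ and 6 of 10 in CD8+ TILs between genotypes with the marker covariate, for 1 and 5 on the T-cell marker scale, and for 3 and 4 between tissues in WT CD4+ and CD8+ cells (4 and 1 in Yap-cKO cells, 3 and 4 between genotypes in the TDLN, and 3 and 6 for the interaction).

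With the replicate block, CD4+ against CD8+ TILs of WT mice gave 1 member in place of 0, where the numbers pair the libraries. In the WT TDLN, where the numbers pair CD4+ and CD8+ cells, the block gave 0 members, as did the fit without it. The share of all genes called with the block is not given here. Between genotypes, where libraries share only a number, the block ended the calls of Nr4a2 (1.88, edgeR adjusted p = 0.15) and Egr2 (1.38, 0.14) in CD8+ TILs. Between tissues, where it is not known whether the numbers pair libraries, the block ended the call of Fosb in WT CD8+ cells (-1.02, 0.0514). It also gave that of Fos in WT CD45 cells (1.18, 0.009). The other 185 values kept their side of the threshold.

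Expected counts carry no molecule tags, so depth limits Egr3 most, at 1.14 CPM in its lowest library. The floor for 3 counts, taken without the TMM factor, was 0.124 to 0.237 CPM. Sex, tumor cell content and genotype are mixed in these groups, and genotype explained 0.499 to 0.644 of the variance of the Y chromosome gene covariate.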
